A study of Mus musculus with 4 samples.

Results

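The 8 genes described here, App, Aplp1, Aplp2, Psen2, Bace1, Sncb, Prnp and Itm2b, encode the amyloid precursor protein, its close relatives, enzymes that cut it, and other neuronal proteins tied to neurodegeneration. They were chosen by name, with earlier results of these data known. Gene identifiers were matched to GENCODE M21 symbols, and the genes are 8 of the 31053 in the count tables. All 8 are protein-coding, and all 8 were among the 12336 genes that passed the filter on low counts.

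The RNA came from cultures of primary cortical neurons, made from embryonic cortices of wild-type C57BL/6J mice and grown with floxuridine, which limits dividing cells. Enhanced crosslinking and immunoprecipitation (eCLIP) links RNA to protein in the cells, trims the RNA with RNase I and pulls it down with an antibody, here one against RPS2, which is part of the small subunit of the ribosome. The series held 2 RPS2 IP libraries and 2 total RNA libraries, and the total RNA was taken from the same samples ahead of the pulldown, so the libraries were paired by replicate number. All cultures were wild type. By the labels the IP libraries were treated by rRNA depletion while the total RNA had no treatment, whereas the study's methods place depletion after library preparation and do not say for which libraries. If the labels hold, the depletion cannot be told apart from the pulldown. The study read the IP over total RNA ratio of a gene as an eCLIP-based translational efficiency. Nothing in the labels says that each replicate number was a separate animal or preparation, so the spread between these libraries may be technical. The main test worked within pairs, so its spread is how far the 2 pairs differed in IP over total RNA. It leaves out the difference between replicate numbers.

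The amyloid precursor protein, APP, is a membrane protein of neurons, and the APP-like proteins APLP1 and APLP2 are its relatives. β-Secretase, encoded by Bace1, cuts APP outside the membrane, and γ-secretase, whose catalytic subunit can be presenilin 2 (Psen2), then cuts the remaining stub within the membrane and frees the amyloid-β peptide that collects in plaques in Alzheimer's disease. β-Synuclein (Sncb) is a small protein of presynaptic terminals, the prion protein (Prnp) is held on the cell surface by a lipid anchor, and BRI2 (Itm2b) is a membrane protein whose mutant forms release amyloid peptides in familial dementias.

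The short cytoplasmic tails of the APP family carry a motif, NPTY, that is bound by adaptor proteins, which are described further on. The coding sequence around it shows how alike the family members are, and with that how far reads could be shared between them. The 45 bases from 3 codons ahead of the motif are given 5′ to 3′ from the GENCODE M21 transcripts of mm10, with the 4 codons of the motif in capitals:
App: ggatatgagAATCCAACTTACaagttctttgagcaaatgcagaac
Aplp1: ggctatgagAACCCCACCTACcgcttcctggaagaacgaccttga
Aplp2: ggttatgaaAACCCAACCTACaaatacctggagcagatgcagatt

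The motif began at coding base 2050 in App, 1930 in Aplp1 and 2218 in Aplp2. App and Aplp2 had 34 of these 45 bases in common, Aplp1 and Aplp2 had 27, and App and Aplp1 had 26. Over the whole transcripts the longest identical run was 24 bases between App and Aplp2 and 14 bases for each of the other pairs. Reads that aligned to several loci were not counted.

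RPS2 sits in the subunit that scans the mRNA for its start codon, so the bases around the start codon of each gene are also shown. Each line gives 12 bases ahead of the start codon, the start codon in capitals, and 9 bases after it, 5′ to 3′, from the transcript with the longest coding sequence:
App: cgcaggatcacgATGctgcccagc
Aplp1: cgaggcccggacATGgggcccacc
Aplp2: acctggagaaggATGgcggccacc
Psen2: tggggagtgaccATGctcgcattc
Bace1: cccgggctcactATGgccccagcg
Sncb: caggccgccaggATGgacgtgttc
Prnp: ctatcagtcatcATGgcgaacctt
Itm2b: ccaggccgcaccATGgtgaaggtg

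A purine 3 bases ahead of the start codon and a G just after it are the bases that are known to matter most for start recognition. All 8 genes had a purine there, which was A in 7 and G in Aplp1. The base after the start codon was G in 6 genes and C in App and Psen2, so that 6 genes had both. Among 19467 genes with such a transcript, 85% had A or G at the first place, 50% had G at the second and 41.9% had both.

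Total counts were 16460545 and 9941486 in the IP libraries and 5281196 and 4899718 in total RNA. A single gene, Gm42418, took between 15.3% and 42.6% of the counts of a library, and its share was higher in replicate 1 of both groups. Within each pair it took more of the IP than of total RNA, 42.6% against 39.8% in replicate 1 and 27.9% against 15.3% in replicate 2. Levels are therefore given as CPM, counts scaled to a common effective library size by TMM, which sets the bulk of genes equal between libraries. The 8 genes together held 82363 and 50838 of the IP counts, and 28288 and 34453 of those in total RNA, where their share was 0.536% and 0.703%. App alone made up 54.5% and 52.0% of these counts in the IP libraries, with 56.3% and 58.8% in total RNA. The count behind a value was lowest for Psen2, at 98 to 295 counts, and highest for App, at 15931 to 44877 counts.

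**Figure D1:**
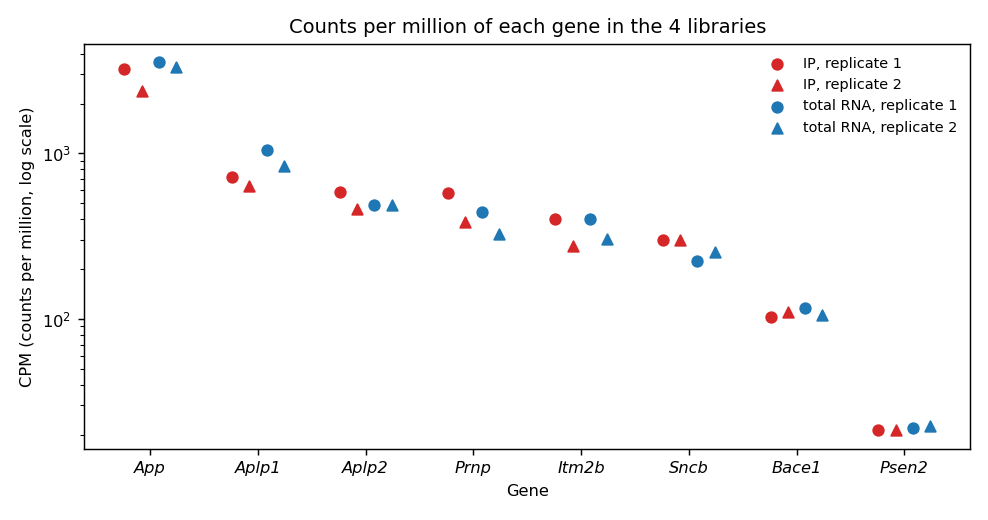
Level of each of the 8 genes in the 4 libraries, in CPM on a log scale, with IP libraries in red, total RNA libraries in blue, circles for replicate 1 and triangles for replicate 2. App lay highest, from 2373 to 3547 CPM, and Psen2 lowest, from 21.2 to 22.5 CPM, and App, Aplp1 and Psen2 had the IP points below the total RNA points while Sncb had both above.

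IP was compared with total RNA to ask which mRNAs the RPS2 pulldown recovered beyond, or short of, their level. Sncb and Prnp rose in the IP, by 1.26-fold and 1.23-fold, App and Aplp1 fell to 0.807 and 0.722 of their total RNA level, and Aplp2, Psen2, Bace1 and Itm2b did not pass the test. The 8 genes therefore gave 2 calls higher and 2 lower, where 6.63% of all genes tested were called higher and 7.55% lower. Higher genes made up 46.8% of these calls, a share that was 24.4% when libraries were scaled by totals alone and 64.4% when they were scaled by totals without Gm42418. Under those scalings Aplp1 alone of the 8, and then the same 4, were called. The test compared the libraries within replicate numbers, that is, with the number as a block in edgeR. Without the block, edgeR called 0 of the 8 genes and 0 of all genes, and 0 of the 8 and 349 of all genes had an unadjusted p under 0.05. Each of these 4 calls thus rests on the pairing, and the blocked fit left 1 residual degree of freedom and gave every gene the common trend of spread.

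The median log2 fold change of the 8 genes was −0.063, against 0.011 over all genes tested, whose middle 50% ran from −0.21 to 0.25. Within the pairs the median of the 8 was −0.019 for replicate 1 and −0.077 for replicate 2, against 0.012 and 0.0075 over all genes. As a group, then, the 8 genes lay close to the centre of all genes, with members on either side. For 1 gene, Sncb, both IP libraries lay above both total RNA libraries, as for 16.9% of all genes, and for 3, App, Aplp1 and Psen2, both lay below, as for 14.9% of all genes.

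**Figure D2:**
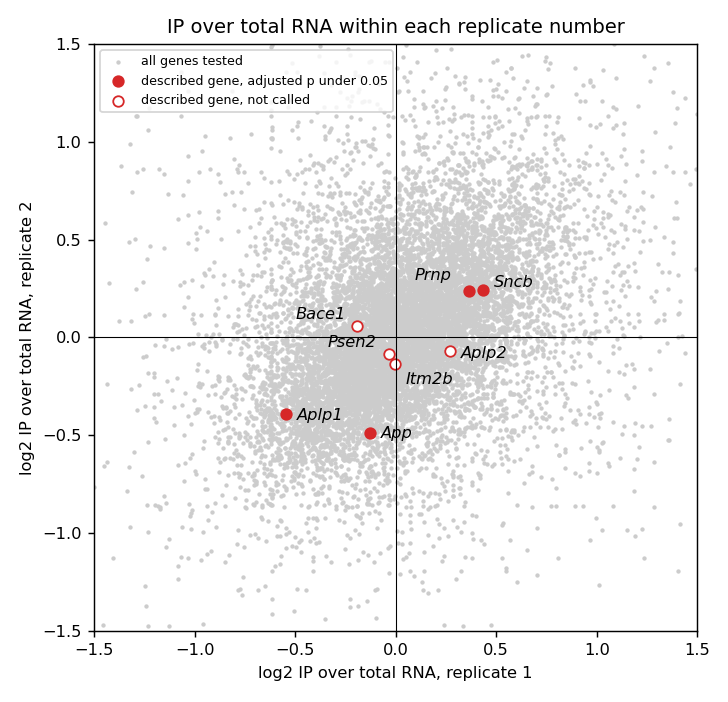
Log2 ratio of IP to total RNA in replicate 1 (x axis) and replicate 2 (y axis) for all genes tested in grey and the 8 genes in red, filled where the blocked edgeR fit gave an adjusted p under 0.05; 278 grey points lie beyond the plotted limits of 1.5. Sncb and Prnp lie at the upper right with positive ratios in both pairs, and App and Aplp1 in the lower left.

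App (ENSMUSG00000022892) lies on the minus strand of chr16:84949685-85173766 in mm10, with a counted exonic length of 12996 bases in 20 merged exons. It measured 3244 and 2373 CPM in the IP libraries of replicates 1 and 2, and 3547 and 3329 CPM in total RNA. The groups did not overlap, with the IP lower, and the IP library of replicate 2 stood lowest. The mean IP level was 2808 ± 616 CPM (SD, n = 2) and the mean total RNA level 3438 ± 154 CPM.

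The log2 ratio of App was −0.13 in replicate 1 and −0.49 in replicate 2, with a counting error of 0.013 in each, so the pairs differed by far more than counting error. The log2 fold change was −0.31 ± 0.11 (SE), with an edgeR quasi-likelihood Benjamini-Hochberg adjusted p of 0.0432. This call was the closest to the threshold among the 4. It was made in 8 of 12 blocked fits and not when GC content and length were corrected for by an offset, where App stood at −0.21. Here and below, the 12 count the main fit and that same fit at a threshold of 0.01. Leaving out a library, in fits without the block, gave −0.54 without IP replicate 1 and −0.089 without IP replicate 2. A gene on the opposite strand, Gm49227, overlapped 113 of its exonic bases, and the counting used strand.

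As a share of all counts, with Wilson 95% intervals that cover counting error only, App took 0.273% (0.270 to 0.275) and 0.266% (0.263 to 0.269) of the IP libraries. Its share of total RNA was 0.302% (0.297 to 0.306) and 0.413% (0.408 to 0.419). The share of total RNA in replicate 2 was the highest of the 4, in the library where Gm42418 took the least.

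Aplp1 (ENSMUSG00000006651), on the minus strand of chr7:30434982-30445535, encodes the family member that is largely restricted to the nervous system. It measured 721 and 636 CPM in the IP libraries, against 1053 and 835 CPM in total RNA. The groups did not overlap, and both pairs showed the lower IP level. The mean IP level was 678 ± 60.0 CPM (SD, n = 2) and the mean total RNA level 944 ± 154 CPM.

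The log2 ratio of Aplp1 was −0.55 in replicate 1 and −0.39 in replicate 2, with counting errors of 0.025 and 0.027. Its log2 fold change of −0.47 ± 0.10 (SE) had an edgeR adjusted p of 0.00011, and 7.98% of all genes tested had a value as low or lower. Aplp1 was the one gene of the 8 that was called in all 12 blocked fits, where its log2 fold change ran from −0.55 to −0.32. Leaving out a library without the block gave −0.30 without total RNA replicate 1, −0.39 without IP replicate 2, and lower values without either of the others.

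Aplp2 (ENSMUSG00000031996), the widely expressed family member, lies on the minus strand of chr9:31149557-31211815. Its level was 588 and 464 CPM in the IP libraries, against 488 and 486 CPM in total RNA. The total RNA libraries nearly coincided and lay between the IP libraries. The log2 ratio was 0.27 in replicate 1 and −0.067 in replicate 2, and the log2 fold change was 0.10, with a 95% interval of −0.093 to 0.29 and an edgeR adjusted p of 0.566.

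The family members were set against each other within each library, per kilobase of exon. The App level was 2.49 and 2.31 times that of Aplp2 in the IP libraries, against 3.29 and 3.09 times in total RNA. The log2 IP ratio of App was lower than that of Aplp2 by a like amount in both pairs, a difference of −0.40 in replicate 1 and −0.42 in replicate 2. The difference between Aplp1 and Aplp2 was −0.82 and −0.33 in the same order, and that between App and Aplp1 changed sign, at 0.42 and −0.095. These differences between genes are given as values, with 1 value per pair and no test.

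Of the secretase genes, Bace1 (ENSMUSG00000032086) lies on the plus strand of chr9:45838580-45864399. It measured 103 and 109 CPM in the IP libraries, against 117 and 105 CPM in total RNA, and the groups overlapped. The log2 ratio was −0.19 and 0.059 in replicates 1 and 2, with counting errors of 0.074 and 0.070, and scaling by library totals alone turned the latter to −0.090. The log2 fold change was −0.065, with a 95% interval of −0.27 to 0.14 and an edgeR adjusted p of 0.756. On the opposite strand, Gm16536 and Rnf214 overlapped 1110 of its 6348 exonic bases.

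Psen2 (ENSMUSG00000010609), on the minus strand of chr1:180227004-180263438, was the least counted of the 8 genes. It measured 21.3 and 21.2 CPM in the IP libraries, against 21.8 and 22.5 CPM in total RNA. Although the IP libraries were the lowest, the log2 ratios of −0.033 and −0.086 were smaller than their counting errors of 0.17 and 0.15. The log2 fold change was −0.061, with a 95% interval of −0.38 to 0.26 and an edgeR adjusted p of 0.863, so a difference was not detectable at this depth.

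Sncb (ENSMUSG00000034891) lies on the minus strand of chr13:54758860-54766595. It measured 302 and 300.0 CPM in the IP libraries, against 223 and 254 CPM in total RNA. The IP libraries nearly coincided and both lay above total RNA, where replicate 1 was the lowest. The mean IP level was 301 ± 1.25 CPM (SD, n = 2) and the mean total RNA level 239 ± 21.8 CPM.

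The log2 ratio of Sncb was 0.44 in replicate 1 and 0.24 in replicate 2, with counting errors of 0.051 and 0.044. Its log2 fold change of 0.34 ± 0.099 (SE) had an edgeR adjusted p of 0.00827, and 81.2% of all genes tested had a lower or equal value. The call was made in 10 of 12 blocked fits, and the value was highest, at 0.43, after the correction for GC content and length. In fits without the block that left out a library it ran from 0.24, without total RNA replicate 1, to 0.43, without total RNA replicate 2. In DESeq2 with the block the adjusted p was 0.077, and with scaling by library totals alone edgeR gave 0.315. Relative to App, the per-kilobase level of Sncb was 0.564 and 0.766 in the IP, against 0.381 and 0.462 in total RNA.

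Prnp (ENSMUSG00000079037) lies on the plus strand of chr2:131909928-131938429. It measured 573 and 385 CPM in the IP libraries, against 445 and 326 CPM in total RNA. The IP level was higher than total RNA in each pair, but the groups overlapped, since both libraries of replicate 1 stood above those of replicate 2. The mean IP level was 479 ± 132 CPM (SD, n = 2) and the mean total RNA level 386 ± 83.6 CPM.

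The log2 ratio of Prnp was 0.36 and 0.24 in replicates 1 and 2, with counting errors of 0.036 and 0.039. The log2 fold change of 0.30 ± 0.098 (SE) had an edgeR adjusted p of 0.0204, a call made in 8 of 12 blocked fits. The correction for GC content and length took it to 0.13, with an edgeR adjusted p of 0.539. In fits without the block, the value was −0.0039 when IP replicate 1 was left out, 0.10 without total RNA replicate 2, 0.55 without total RNA replicate 1 and 0.57 with IP replicate 2 left out. Prnp shares 145 exonic bases with Prn, annotated on the same strand, where reads were assigned to neither gene.

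Itm2b (ENSMUSG00000022108), on the minus strand of chr14:73362226-73385289, measured 403 and 277 CPM in the IP libraries, against 404 and 305 CPM in total RNA. As for Prnp, both libraries of replicate 1 stood above those of replicate 2. Within replicate 1 the IP and total RNA levels were nearly equal, with a log2 ratio of −0.0059, and in replicate 2 the ratio was −0.14. The log2 fold change was −0.071, with a 95% interval of −0.26 to 0.12 and an edgeR adjusted p of 0.702. Corrected for GC content and length it was −0.28 (edgeR adjusted p = 0.0674). In fits without the block that left out a library, its sign turned, from −0.36 without IP replicate 1 to 0.18 when IP replicate 2 was left out.

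To compare levels between genes, CPM was divided by the listed exonic length in kilobases. In total RNA, Aplp1 was first at 313 ± 51.1 CPM per kilobase, followed by App at 265 ± 11.9, Prnp at 165 ± 35.7, Itm2b at 130 ± 25.7, Sncb at 111 ± 10.2 and Aplp2 at 82.9 ± 0.152 (SD, n = 2). Bace1 at 17.5 ± 1.35 and Psen2 at 5.12 ± 0.114 lay far below. The order of Aplp1 and App was the same in both total RNA libraries but their difference in means was within the SD of Aplp1. Prnp and Itm2b, and Itm2b and Sncb, also lay within their spread, but Prnp was above Itm2b in all 4 libraries. Sncb was above Itm2b in replicate 2 and below it in replicate 1. Among all genes tested, Aplp1 ranked 32 and App 42 by this measure, and Psen2 ranked 5094.

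In the IP the order at the top was not the same in the 2 libraries. In replicate 1, App was at 249.6, Prnp at 244.4 and Aplp1 at 238.9 CPM per kilobase, all close together. In replicate 2, Aplp1 was first at 210.8, ahead of App at 182.6 and Prnp at 164.4. Aplp1, first in both total RNA libraries, thus followed App and Prnp in the IP of replicate 1, and Aplp2, Bace1 and Psen2 kept the last places in all 4 libraries.

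The listed length joins the exons of all annotated transcripts of a gene, and for App this came to 12996 bases, against 3176 bases for the transcript with the longest coding sequence. With the length of that transcript in its place, App was first in total RNA at 1083 ± 48.6 CPM per kilobase and Aplp1 followed at 403 ± 65.8. Itm2b at 197 ± 39.1, Sncb at 177 ± 16.1 and Prnp at 177 ± 38.3 then lay within their spread. The place of App therefore depends on the length used, and which transcripts the cultures held was not measured by counts per gene.

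**Figure D3:**
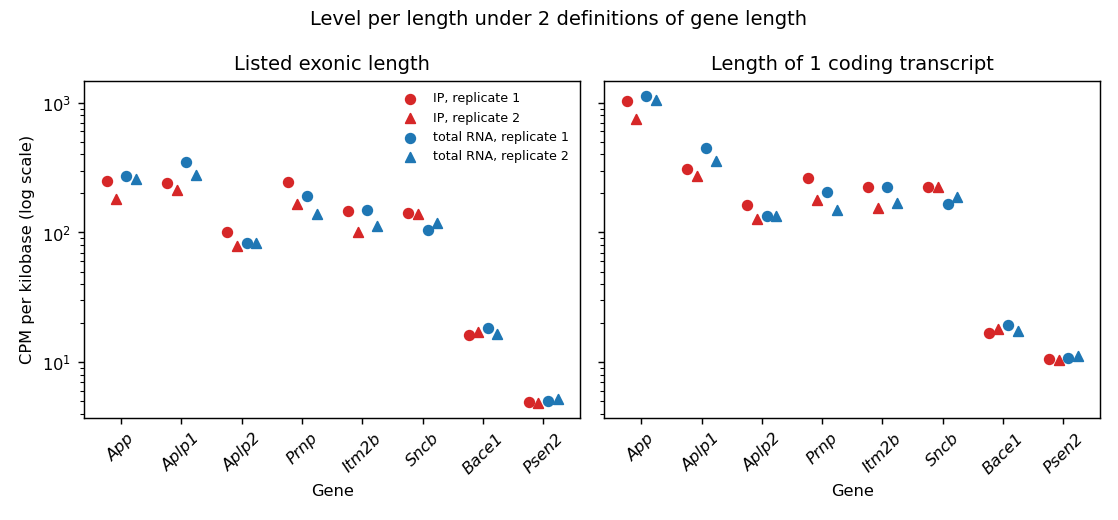
Level per kilobase of the 8 genes in the 4 libraries on a log scale, with the exonic length listed in the count tables on the left and the length of 1 coding transcript per gene on the right; colours give IP (red) and total RNA (blue), shapes the replicate. App stands close to Aplp1 on the left and above all other genes on the right, while Bace1 and Psen2 are lowest in both panels.

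For Prnp and Itm2b the replicate numbers differed by more than IP and total RNA did within a pair. From replicate 1 to replicate 2 the log2 level of Prnp differed by −0.57 in the IP libraries and −0.45 in total RNA, and that of Itm2b by −0.54 and −0.41. App differed by −0.45 in the IP but by −0.092 in total RNA, and Aplp2 by −0.34 and −0.0037. Prnp and Itm2b were thus lower in replicate 2 in both groups of libraries, whereas App and Aplp2 were lower mainly in its IP library. Sncb was at −0.0085 and 0.19, Psen2 at −0.0084 and 0.045, Bace1 at 0.093 and −0.16, and Aplp1 at −0.18 and −0.33. Over all genes tested the median was −0.0021 in the IP and −0.014 in total RNA, with SDs of 0.69 and 0.78.

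The same replicate numbers differed in markers of other cells. The summed level of 6 astrocyte markers was 3383 and 1373 CPM in the IP libraries, against 2754 and 1229 CPM in total RNA of replicates 1 and 2. For 6 microglial markers it was 84.8 and 7.28 CPM in the IP libraries, against 89.3 and 5.92 CPM in total RNA, with 3 of the 6 at 0 in some library. The 6 neuronal markers, all detected in all libraries, summed to between 3021 and 3486 CPM, the 6 oligodendrocyte lineage markers to between 52.8 and 62.4 CPM, and the 4 endothelial markers to at most 2.82 CPM, with Cldn5 at 0 throughout. Within each pair the astrocyte and oligodendrocyte lineage sums were higher in the IP, and the other sums changed direction between pairs. Sncb and Prnp were higher in both pairs, as were 34.3% of all genes tested. Neuronal markers were thus present at high levels, as the label of cortical neurons has it, beside markers of glia. The part of glial RNA in the values of the 8 genes was not tested, and in bulk libraries fewer cells of a type and less RNA per cell cannot be told apart.

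**Figure D4:**
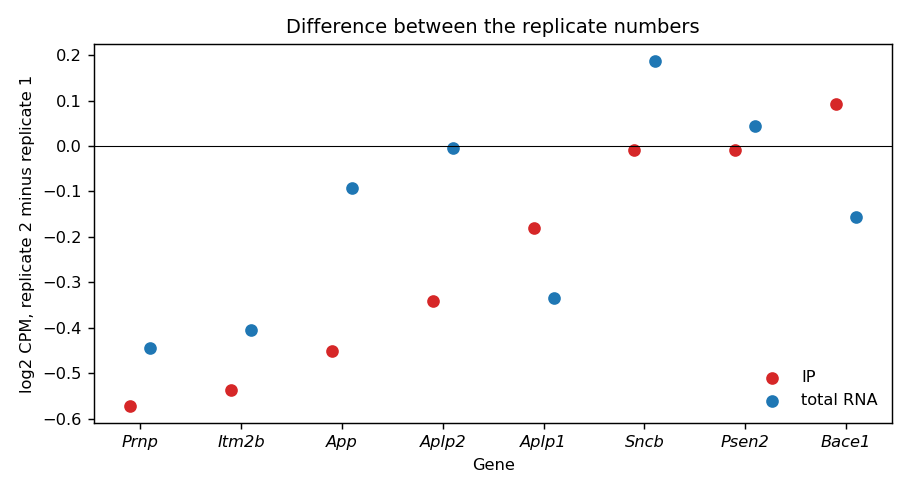
Log2 CPM in replicate 2 minus log2 CPM in replicate 1 for each of the 8 genes, for the IP libraries in red and total RNA in blue. Prnp and Itm2b lie below −0.4 in both groups of libraries, whereas App and Aplp2 lie below −0.3 in the IP alone.

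The partners of these proteins were read from the same fit in 5 lists that hold 39 genes, of which 38 were in the tables and 35 were tested. Of these 35, 2 were called higher and 8 lower, 25 were not called, and their median log2 fold change was −0.11 against 0.011 over all genes. Over all genes tested 6.63% were called higher and 7.55% lower. The lists were written with earlier results of these data known.

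The APP adaptors bind the tail motif shown above or link APP to transport and signalling. All 9 adaptor genes tested had a log2 fold change below 0, with a median of −0.24, and 4 were called lower and 0 higher, where 48.7% of all genes tested lay below 0 and 7.55% were called lower. Apbb3 was not analysed here. Mapk8ip1, a scaffold for JNK signalling that binds the APP tail and kinesin, measured 164 and 184 CPM in the IP libraries, against 264 and 275 CPM in total RNA. Its groups did not overlap, and its log2 fold change of −0.63 ± 0.099 (SE) was called in all 12 blocked fits, with an edgeR adjusted p of 3.5e-08.

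Apba1, which encodes the neuronal adaptor X11α or MINT1, measured 179 and 183 CPM in the IP libraries, against 236 and 231 CPM in total RNA, a log2 fold change of −0.37 ± 0.099 (SE; edgeR adjusted p = 0.00375). Apba3 fell by 0.56 on the log2 scale (edgeR adjusted p = 0.0107), from lower levels of 15.6 to 25.6 CPM. Apbb1, which encodes FE65, was at −0.29 ± 0.098 (SE; edgeR adjusted p = 0.0294), and was called in 5 of 12 blocked fits. All 9 values lay below 0 in each of the 12 blocked fits, and 8 or 9 did in the fits that left out a library. Corrected for GC content and length, their median was −0.14 and Mapk8ip1 alone was called.

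**Figure D5:**
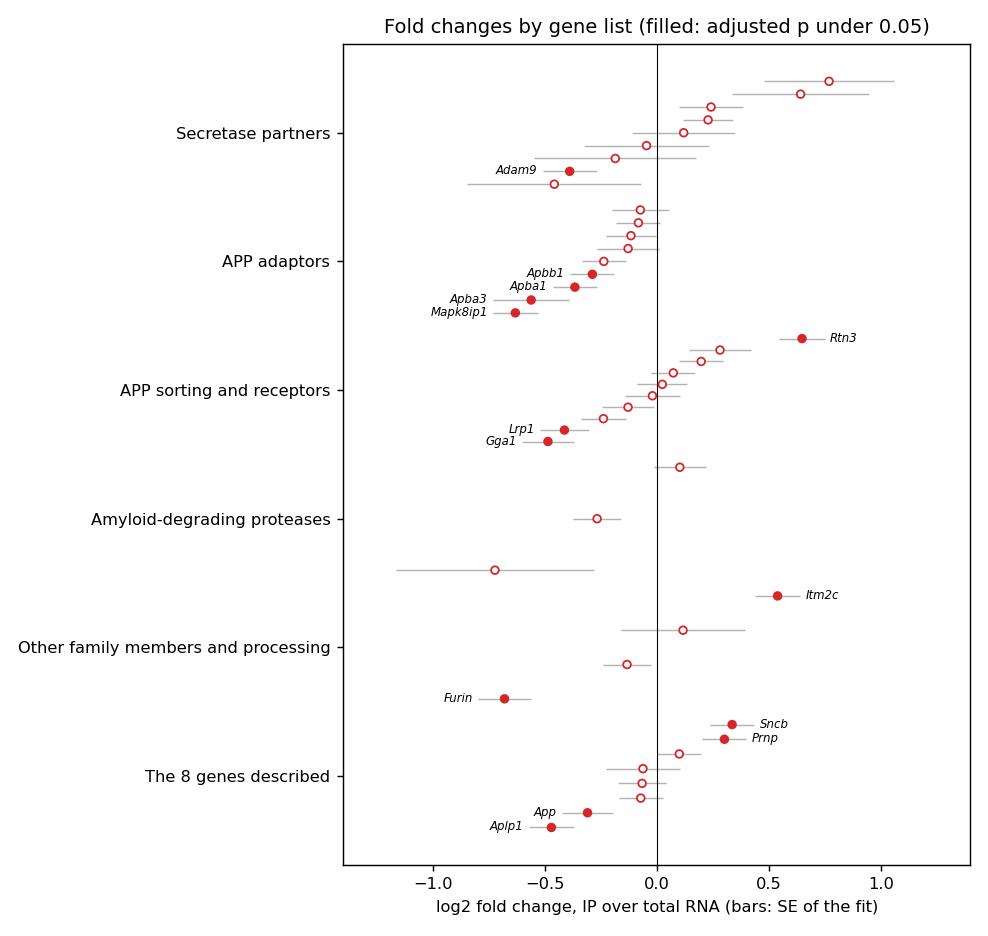
Log2 fold change of IP over total RNA, with the standard error of the blocked edgeR fit as bars, for the tested genes of 5 lists of partners and for the 8 genes described, filled where the adjusted p was under 0.05. All 9 adaptor genes lie left of 0, and the other lists lie on both sides or have few genes.

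Among the secretase partners, which include the α-secretases, Bace2 and the other subunits of γ-secretase, 9 genes were tested. Of these, 0 were called higher and 1 lower, beside 6.63% and 7.55% over all genes tested. The gene called was Adam9, a metalloprotease, at 43.7 and 45.9 CPM in the IP libraries, against 59.0 and 58.4 CPM in total RNA. Its log2 fold change was −0.39 ± 0.12 (SE; edgeR adjusted p = 0.0132), called in 7 of 12 blocked fits. The median of the list was 0.12, with 5 values above 0 and 4 below. No γ-secretase subunit was called in this fit, nor was Psen2. Among the other blocked fits Aph1b, at 0.77 ± 0.29 (SE) with an edgeR adjusted p of 0.0549 here, was called in 3 and Ncstn in 1.

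Genes for the sorting of APP and its receptors moved in both directions, with 1 of 10 called higher, 2 lower and a median of 0.0029, beside 6.63% and 7.55% called over all genes. Rtn3, a reticulon of the endoplasmic reticulum that binds BACE1, measured 892 and 966 CPM in the IP libraries, against 584 and 601 CPM in total RNA. The groups were well apart, and its log2 fold change of 0.65 ± 0.10 (SE; edgeR adjusted p = 2.2e-08) was called in all 12 blocked fits. Lrp1, a large endocytic receptor that binds APP, fell by 0.41 on the log2 scale (edgeR adjusted p = 0.00245), but the GC and length correction left it at −0.046. Its levels, 2575 and 1316 CPM in the IP libraries against 3225 and 1860 CPM in total RNA, followed the replicate number more than the pulldown. Gga1, an adaptor of the trans-Golgi network, was at −0.49 ± 0.12 (SE; edgeR adjusted p = 0.00076) and at −0.28 after that correction, where it was no longer called (edgeR adjusted p = 0.139).

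Of 4 amyloid-degrading proteases, 3 were tested and 0 were called by the blocked edgeR fit, with values from −0.72 to 0.10. Among other family members and processing enzymes, 4 of 6 were tested, with 1 called higher and 1 lower. Over all genes tested 6.63% were called higher and 7.55% lower. Itm2c, which encodes BRI3, a relative of Itm2b, measured 909 and 760 CPM in the IP libraries, against 622 and 526 CPM in total RNA. It rose in both pairs, with a log2 fold change of 0.54 ± 0.10 (SE; edgeR adjusted p = 5.0e-06), while Itm2b was at −0.071. Furin, a convertase that trims BRI2 and other precursor proteins, measured 49.1 and 40.8 CPM in the IP libraries, against 80.6 and 63.6 CPM in total RNA. Its log2 fold change of −0.68 ± 0.12 (SE; edgeR adjusted p = 6.8e-07) was called in all 12 blocked fits. After the GC and length correction it was smaller, at −0.38 (edgeR adjusted p = 0.0228).

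Fold changes across all genes fell with GC content and with length, with Spearman correlations over genes of −0.32 and −0.17. Of the called genes, GC content was 59.7% for Aplp1 and 59.6% for Sncb, and 48.7% for App and 49.8% for Prnp. App and Prnp had 12996 and 2343 exonic bases. After the GC and length correction App, at −0.21, and Prnp, at 0.13, were no longer called. Aplp1, at −0.32, and Sncb, at 0.43, still were. The part of GC content or length in these calls was not tested. None of the 8 genes held an annotated small RNA in its counted exons.

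Genes with a like pattern were sought for App and Sncb by the Euclidean distance between centred log2 CPM over the 4 libraries, among 5002 other genes with at least 100 counts in each. Nearest to App were Mtss1 at 0.024, Ubxn1 at 0.028 and Sall2 at 0.042, where the median distance was 0.57. Mtss1 measured 63.0 and 46.0 CPM in the IP libraries, against 67.7 and 63.6 CPM in total RNA, with the IP library of replicate 2 lowest, as for App. Nearest to Sncb were Dnajb11 at 0.025, Ndufa2 at 0.036 and Fam173a at 0.039, with a median distance of 0.59. The distance is a description over 4 libraries.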

How the data were processed

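RPS2 eCLIP IP and total RNA libraries (2 each) of wild-type primary cortical neurons were analysed. Each deposited file gives 1 library's unnormalised counts by gene. The authors, per the file headers, used featureCounts 1.5.3 in stranded mode on an mm10 annotation, without options for reads at several loci or in several genes, after adapter trimming with cutadapt and alignment with STAR. Duplicate removal was not named, so counting errors and intervals cover counting only. The files also list exonic lengths.

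Symbols came from GENCODE M21 for 30934 of 31053 identifiers. The main test was edgeR 4.0.16 in R 4.3.3 (filterByExpr, TMM, glmQLFit and glmQLFTest, two-sided, replicate number as a block, Benjamini-Hochberg over 12336 genes, threshold 0.05). It was checked on simulated data drawn with the replicate difference and the spread of this fit built in. That check therefore could not test the pairing or the spread that the fit assumes. Pair ratios are differences of log2 CPM with a prior count of 2. The block follows the study's methods, where total RNA and IP came from the same samples, and deviations from group means correlated at 0.733 between same-numbered libraries. DESeq2 1.42.0, limma-voom 3.58.1 and an offset from mgcv 1.9.3 were alternatives. Named were the 8 genes, the list genes called, and the 3 genes nearest in pattern to App and Sncb. Members and lists were chosen with earlier results of these data known. Sequences are from GENCODE M21 transcripts, and some single genes are not reported here.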

Additional observations from a re-analysis of the deposited data

How the results depend on the processing

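Of the 8 genes, the 4 called kept their direction in all 12 fits with the block, but how many were called depended on the fit. These 12 count the main fit and that same fit at a threshold of 0.01. With no replicate block, edgeR called 0 of the 8 genes and 0 of all genes higher or lower (349 had an unadjusted p under 0.05), so every call rests on the replicate block. With the block, counts of all genes higher and lower were 283 and 878 with scaling by library totals alone, where higher genes were 24.4% of calls in place of 46.8%. They were 158 and 382 in DESeq2 (7653 genes had no adjusted p), 472 and 383 after the GC and length correction, 452 and 602 at a threshold of 0.01, 1231 higher without Gm42418 scaled by the remaining totals (64.4% of calls), and 452 higher after thinning to the shallowest library. Of the 8 genes, 0 were called higher and 1 lower with totals alone, 0 higher in DESeq2, 1 higher and 1 lower at the 0.01 threshold, likewise 1 and 1 after that correction, then 1 lower with at least 10 counts in every library, where App was lost. Scaling by totals alone moved the median of all genes to −0.073 and the remaining totals without Gm42418 moved it to 0.081, and the signs of App, Aplp1, Sncb and Prnp held in both, while the median of the 8 genes was −0.15 and 0.0060.

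Leaving out 1 library, without the block, called 0 genes higher, 1, 3, 3 and 8 lower, and 0 of the 8 genes, and the median of the 8 ran from −0.093 (without total RNA replicate 2) to 0.062 (without total RNA replicate 1). Of the 4 called genes, Prnp alone changed sign, at −0.0039 without IP replicate 1. Of the 4 not called, Aplp2, Bace1 and Itm2b changed sign in some of these fits, Itm2b over the widest range, from −0.36 to 0.18. Depth limited Psen2 most, with 98 counts in its shallowest library. These fits assume that a lone library varies like the other group. The coding transcript length and the fit without Gm42418 scaled by TMM (820 higher, 947 lower) were chosen after seeing the data.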
